A study of Mus musculus with 8 samples.

Results

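Aminoacyl-tRNA synthetases join each amino acid to its transfer RNA, the step that sets which amino acid a codon is read as. Mammalian cells keep separate sets for the cytosol and for the mitochondrion, and nuclear genes encode both. In brown adipose tissue (BAT) the mitochondrial set serves the synthesis of the respiratory chain subunits that mitochondrial DNA encodes. The genes examined here were those on autosomes of the mouse genome (mm10) with a curated RefSeq mRNA and a symbol made of 1 capital letter followed by ars, ars1 or ars2, together with Eprs. The rule found 35 genes among 20021 autosomal genes with a curated mRNA. Of these, 17 have a symbol ending in 2 and encode mitochondrial enzymes, and the other 18 were counted as cytosolic. Gars and Kars are each a single gene whose products work in both compartments, and the rule placed them in the cytosolic class.

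Chromatin accessibility was measured by ATAC-seq, in which the Tn5 transposase cuts DNA that nucleosomes leave exposed. Nuclei came from BAT of 2 WT mice and 2 Dot1L-BKO mice. The mice were 12 weeks old, fed chow and held at 4°C for 4 hr before collection. WT mice carried the floxed Dot1l gene without Cre, and Dot1L-BKO mice carried it with a Ucp1-Cre transgene. Dot1l is a histone H3K79 methyltransferase, and the transgene removes it in Ucp1+ cells, so that other cells of the tissue keep it in both genotypes. The deposited data are a single list of 32173 summits, each the highest point of a peak, made from the 4 libraries with WT named against Dot1L-BKO. Which libraries served as control, if any did, is not given in the sources used here. If the Dot1L-BKO libraries did, a summit and its score would measure signal in WT over that in Dot1L-BKO, and not accessibility as such. The summits, scores and shares below are therefore properties of the list, and are not given as accessibility of either genotype. Each summit has a score, the −log10 of the q-value from the peak caller. The list holds no value for any single mouse, so read depth and the spread between replicates are unknown and the genotypes could not be compared. The RNA-seq libraries of the same study were not analysed here.

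The tissue label was set beside promoters of marker genes, a promoter summit being one within 1 kb of a transcription start site (TSS). All 10 adipocyte markers had a promoter summit, beside 46.8% of all autosomal genes. They were Ucp1, Cidea, Dio2, Elovl3, Ppargc1a and Prdm16, which mark brown adipocytes or their gene program, and Pparg, Adipoq, Fabp4 and Plin1, which adipocytes in general express. Their scores ran from 6.02 at Dio2 and Adipoq to 61.5 at Cidea, and Ucp1, the thermogenic uncoupling protein, had 33.7. Dio2, Adipoq, Prdm16 (8.65) and Elovl3 (9.78) were below 10.9, the median of all autosomal genes with a promoter summit. Markers of other cells had one at Cdh5 (1 of 3 endothelial genes), Cd68 (1 of 3 macrophage genes) and Pdgfra (1 of 2 progenitor genes), with scores from 2.15 to 4.16. The 3 skeletal muscle genes and the 3 genes of other organs had none. Since the control is not known, these counts show that the list holds promoters of adipocyte genes and do not settle the makeup of the tissue.

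Sequences upstream of the synthetase genes are given first, because they hold the short motifs whose counts by class are given after them. Those counts describe the reference genome, and the difference between classes was not tested. Promoter sequences of 250 bases before to 50 bases after the most upstream TSS were taken from RefSeq (GRCm38.p6, the same build as mm10) and were used for 25 members, 11 cytosolic and 14 mitochondrial. Promoter sequences of Cars, Hars, Hars2, Lars, Nars, Pars2, Rars, Vars and Wars were not used. Each sequence below runs 5′ to 3′ on the strand of its gene, from 120 bases before the TSS through the first 30 transcribed bases. The 5 members with a CARE match are shown first, with the match in capitals. CARE, also called the amino acid response element, is bound by ATF4 with a C/EBP partner and was searched as TGATGNAA on both strands.

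Aars, chr8:111033722-111033871, plus strand: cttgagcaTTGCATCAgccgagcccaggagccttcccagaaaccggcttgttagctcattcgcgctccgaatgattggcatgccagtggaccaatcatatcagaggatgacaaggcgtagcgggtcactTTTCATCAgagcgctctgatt

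Gars, chr6:55037881-55038030, plus strand: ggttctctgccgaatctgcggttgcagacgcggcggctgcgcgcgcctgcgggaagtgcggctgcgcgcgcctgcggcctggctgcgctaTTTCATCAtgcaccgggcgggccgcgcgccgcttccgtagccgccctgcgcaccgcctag

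Iars, chr13:49682010-49682159, plus strand: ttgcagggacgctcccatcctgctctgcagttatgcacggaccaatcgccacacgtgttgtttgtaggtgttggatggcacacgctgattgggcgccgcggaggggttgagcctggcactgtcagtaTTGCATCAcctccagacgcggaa

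Tars, chr15:11399629-11399778, minus strand: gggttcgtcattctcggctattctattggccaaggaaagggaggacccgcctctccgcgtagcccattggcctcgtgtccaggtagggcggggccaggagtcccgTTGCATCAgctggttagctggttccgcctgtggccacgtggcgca

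Yars, chr4:129189783-129189932, plus strand: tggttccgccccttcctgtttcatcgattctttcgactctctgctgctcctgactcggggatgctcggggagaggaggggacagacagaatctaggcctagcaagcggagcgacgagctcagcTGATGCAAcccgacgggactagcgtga

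The next sequences are of Vars2 and Wars2, the members with a match to the core of the NRF1 site, searched as CGCATGCG and shown in capitals. NRF1 is a transcription factor of many nuclear genes for mitochondrial proteins.

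Vars2, chr17:35667563-35667712, minus strand: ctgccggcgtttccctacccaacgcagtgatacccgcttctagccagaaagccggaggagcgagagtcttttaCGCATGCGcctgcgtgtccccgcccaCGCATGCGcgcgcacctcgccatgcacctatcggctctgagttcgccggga

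Wars2, chr3:99140970-99141119, plus strand: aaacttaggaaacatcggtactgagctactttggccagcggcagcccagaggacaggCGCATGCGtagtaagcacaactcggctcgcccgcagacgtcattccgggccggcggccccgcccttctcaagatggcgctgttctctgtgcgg

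Eprs and Nars2 are shown for contrast, as high-scored members with neither motif in the promoter window searched.

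Eprs, chr1:185362924-185363073, plus strand: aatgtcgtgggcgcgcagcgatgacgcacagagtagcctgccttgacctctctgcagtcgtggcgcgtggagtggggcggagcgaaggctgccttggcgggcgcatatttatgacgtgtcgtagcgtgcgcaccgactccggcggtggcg

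Nars2, chr7:96951407-96951556, plus strand: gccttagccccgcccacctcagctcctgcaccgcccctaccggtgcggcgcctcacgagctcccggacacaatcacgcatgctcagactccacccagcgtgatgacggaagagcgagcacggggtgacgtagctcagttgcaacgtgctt

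The CARE letters were in 5 of 11 cytosolic promoters and 0 of 14 mitochondrial ones. Over all 15656 autosomal genes with such a promoter sequence the share was 3.32%, and over the 7503 of these with a promoter summit it was 1.93%. The match began 30 bases before the TSS in Gars and 15 before it in Tars. In Iars and Yars it began within the transcript, at base 8 and base 4, and Aars held one match beginning 112 bases before the TSS and another beginning at base 10 of the transcript. The centre of the nearest match lay 19.5 bp from the promoter summit in Yars, 34.5 bp in Aars, 63.5 bp in Iars, 85.5 bp in Tars and 93.5 bp in Gars. Matches and promoter summits were both sought near the TSS, so short distances follow in part from the windows. A link between match and summit was not tested. With the window widened to 250 bp on each side of the TSS, Eprs and Mars1 held a match as well, which gave 7 of 11 cytosolic and again 0 of 14 mitochondrial promoters against 4.71% of all genes. These are letters in the reference genome, and binding of ATF4 was not measured.

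Other motifs were counted by class in the same way, and differences between motifs were not tested. The NRF1 core was in 0 of 11 cytosolic and 2 of 14 mitochondrial promoters, beside 2.70% of all promoters and 4.76% of those with a promoter summit. The YY1 motif AAGATGGCG was also found only in mitochondrial members among the 25 searched. Aars2, Wars2 and Yars2 held it within the first 30 bases of the transcript, beside 2.01% of all promoters and 3.49% of those with a promoter summit, and Fars2 held it in the wider window. The E-box CACGTG was in Aars, Iars and Tars of the cytosolic class and in Ears2 of the mitochondrial class, beside 8.14% of all promoters and 10.8% of those with a promoter summit. The ETS motif CCGGAAG was in 4 promoters of each class, a share of 32.0% of the 25 beside 12.6% of all promoters and 21.2% of those with a promoter summit. The SP and KLF motif GGGCGG was in 8 cytosolic and 11 mitochondrial promoters, 76.0% of the 25, beside 48.4% of all promoters and 69.1% of those with a summit. None of the 25 held the CRE letters TGACGTCA (2.45% of all promoters and 3.72% of those with a summit) or the ERR motif AAGGTCA (3.92% and 3.08%). Each motif was searched on both strands, and a promoter counted once however many matches it held; matches of different motifs that overlap were each counted.

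All 35 synthetase genes had a promoter summit in the deposited list. The share was 100% with a 95% Wilson interval of 90.1% to 100%, which covers counting error only. Among all 20021 autosomal genes 9371 had one, which is 46.8%. The 18 cytosolic genes (interval 82.4% to 100%) and the 17 mitochondrial genes (81.6% to 100%) were both complete. The difference between the classes was 0 percentage points, with a Newcombe interval from -17.6 to 18.4. The 35 genes shared 34 distinct summits, because Hars and Hars2 have 1 in common. For comparison, 67 of 78 mitochondrial ribosomal protein genes (85.9%) and 75 of 81 cytosolic ribosomal protein genes (92.6%) on autosomes had a promoter summit, and the difference from these was not tested.

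The promoters of the synthetase genes were of moderate GC content, from 48.3% to 71.7% with a median of 58.3%, beside a median of 57.0% over all autosomal genes. Their ratio of observed to expected CpG ranged from 0.400 to 1.24 with a median of 0.791, beside a median of 0.606. Of the 9964 autosomal genes inside both ranges, 69.9% had a promoter summit. The part of base composition in the share of the members was not tested.

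Scores ran over a wide range within the family. The highest-scored promoter summit of a member had a median score of 13.4, with a lowest value of 3.97 at Vars2 and a highest of 53.8 at Wars2. The median over the 9371 autosomal genes with a promoter summit was 10.9. A score of at least 5 was reached by 33 of the 35 genes (94.3%) and by 37.5% of all autosomal genes, and a score of at least 10 by 21 genes (60%) and by 24.5% of all. The shares of all autosomal genes include genes without a promoter summit. Of the 9371 with one, 7508 reached a score of at least 5 and 4904 a score of at least 10. Rars (4.16) and Vars2 were the members below 5. Of the 35, 17 ranked among the first 5000 summits of the list and 4 among the first 1000. The share of all autosomal genes at these ranks was not counted, so the ranks only place the members in the list.

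**Figure D1:**
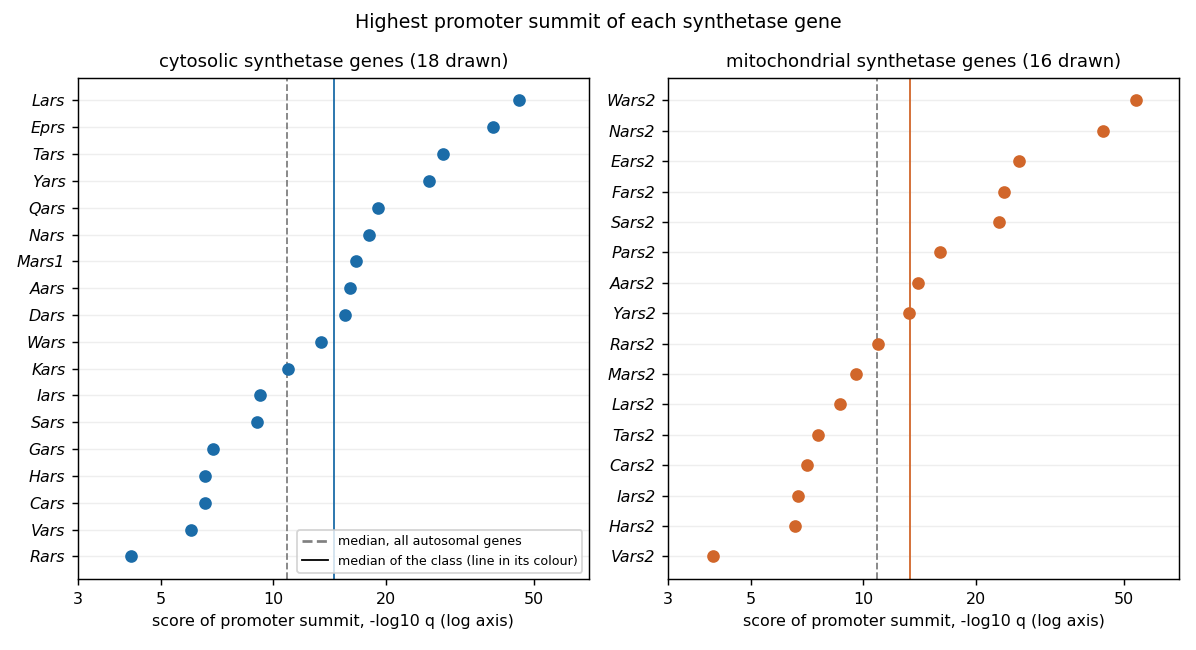
The plot of promoter scores gives the score (−log10 q, log axis) of the highest summit within 1 kb of a TSS for each gene, 1 point per gene, for 18 cytosolic genes on the left and 16 of 17 mitochondrial genes on the right. The line in the colour of the class is the median of all its genes (14.5 and 13.3), the dashed line is the median of all autosomal genes with a promoter summit (10.9), and points of both classes lie on both sides of it.

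The highest-scored cytosolic members were Lars, Eprs, Tars and Yars. Lars, the leucine enzyme, is encoded on the minus strand of chromosome 18 with the TSS of its curated mRNA at 42262125, and its summit at 42262206, 81 bp upstream, scored 45.4 and ranked 720. Eprs, a fused enzyme for glutamic acid and proline, lies on chromosome 1 on the plus strand with a summit at 185362993. That summit was 51 bp upstream of the TSS and scored 38.7, rank 959. Tars, the threonine enzyme on chromosome 15, had a summit at 11399755, 97 bp upstream, with a score of 28.5. Yars, the tyrosine enzyme on chromosome 4, had a summit at 129189929 in an exon, 26 bp downstream of the TSS, with a score of 26.1.

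The rest of the cytosolic class fell in 2 ranges. Between 10.9 and 19.1 were Qars, Nars, Mars1, Aars, Dars, Wars and Kars. Between 4.16 and 9.21 were Iars, Sars, Gars, Hars, Cars, Vars and Rars. The cytosolic genes with a CARE match were spread over the class, with scores of 28.5 at Tars, 26.1 at Yars, 16.0 at Aars, 9.21 at Iars and 6.88 at Gars.

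The highest-scored mitochondrial members were Wars2, Nars2, Ears2 and Fars2. Wars2, for tryptophan, had the top score of the family at 53.8 (rank 449), with its summit at position 99141326 of chromosome 3, in an intron 236 bp downstream of the TSS. Nars2, for asparagine, had a score of 44.0 (rank 752) at 96951590 on chromosome 7, in an exon 63 bp downstream. The summit of Ears2, for glutamic acid, was at 122067200 on chromosome 7, 114 bp upstream, with a score of 26.1. That of Fars2, for phenylalanine, was at 36117530 on chromosome 13, 113 bp upstream, with a score of 23.8. Sars2 followed with 23.1. The scores of Pars2, Aars2, Yars2 and Rars2 lay between 10.9 and 16.0, and those of Mars2, Lars2, Tars2, Cars2, Iars2, Hars2 and Vars2 between 3.97 and 9.55.

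The score ranges of the 2 classes overlapped. Cytosolic scores ran from 4.16 to 45.4, with quartiles of 7.43 and 18.9 around a median of 14.5. Mitochondrial scores ran from 3.97 to 53.8, with quartiles of 7.58 and 23.1 around a median of 13.3. A score of at least 10 was reached by 11 of 18 cytosolic genes (61.1%) and by 10 of 17 mitochondrial genes (58.8%), a difference of 2.29 percentage points with a Newcombe interval from -27.5 to 31.7. Without the genes whose summit also lay within 1 kb of a TSS of another gene, the medians moved apart, to 16.0 for 13 cytosolic genes and 9.55 for 11 mitochondrial genes.

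**Figure D2:**
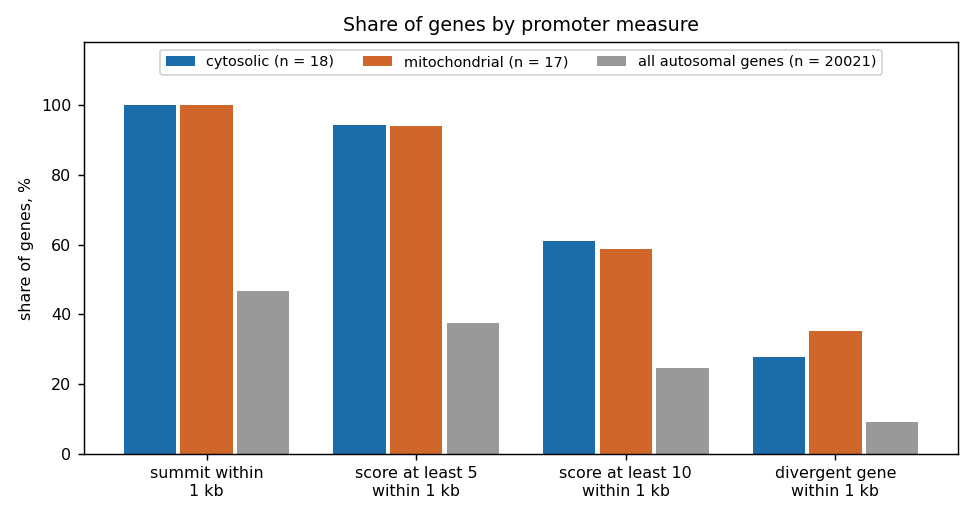
The bar chart gives, as percent of genes, the share with a promoter summit at any score and at score minimums of 5 and 10, and the share with a divergent gene, for 18 cytosolic genes, 17 mitochondrial genes and 20021 autosomal genes. Both classes stand at 100% in the first measure against 46.8%, and at 61.1% and 58.8% against 24.5% with a score of at least 10. The bars of the 20021 genes include genes without a promoter summit in every measure.

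For 14 amino acids the cytosolic and the mitochondrial enzyme are both members with the same first letter, each a gene of its own, and can be set side by side. The cytosolic gene had the higher promoter score in 8 of these pairs, the mitochondrial gene in 5, and the pair Hars and Hars2 had the same summit. The widest gaps went both ways. For leucine the score was 45.4 at Lars and 8.65 at Lars2, and for threonine 28.5 at Tars and 7.58 at Tars2. For tryptophan it was 13.4 at Wars and 53.8 at Wars2, and for asparagine 18.1 at Nars and 44.0 at Nars2. The alanine genes, with 16.0 at Aars and 14.0 at Aars2, were closer to each other. Eprs, whose fused enzyme serves glutamic acid and proline in the cytosol, was not counted among the 14 pairs. Its score of 38.7 stands beside 26.1 at Ears2 and 16.0 at Pars2, the mitochondrial genes for these amino acids, so that the cytosolic gene was higher for both. Without values per mouse, the size of a gap could not be set against replicate error.

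**Figure D3:**
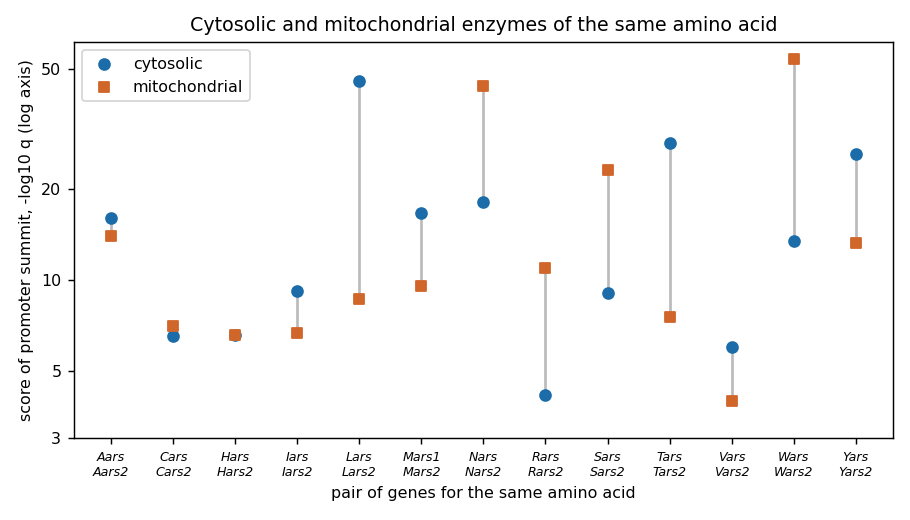
The plot of paired scores gives the promoter score (−log10 q, log axis) of the cytosolic gene (circle) and the mitochondrial gene (square) for 13 of the 14 pairs with the same first letter, joined by a line, Eprs not included. The circle is higher in 7 pairs and the square in 5, and for Hars and Hars2 they coincide at 6.58.

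Equal scores also occurred at separate promoters. Aars and Pars2 had 16.0, Kars and Rars2 10.9, and Ears2 and Yars 26.1, each pair with the same value in the deposited list. The 32173 summits held 2606 distinct scores, so that ties were frequent.

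Of the cytosolic enzymes, 8 assemble with scaffold proteins into the multi-synthetase complex. Their genes (Dars, Eprs, Iars, Kars, Lars, Mars1, Qars and Rars) had a median promoter score of 16.1, from 4.16 at Rars to 45.4 at Lars. The other 10 cytosolic genes had a median of 11.2, from 6.02 at Vars to 28.5 at Tars. A score of at least 10 was reached by 6 of 8 and 5 of 10 genes, a difference of 25 percentage points with an interval from -18.1 to 56.8. At a score of at least 5 the order was the other way, with 7 of 8 and 10 of 10 genes, a difference of -12.5 percentage points with an interval from -47.1 to 17.1. The 3 scaffold genes had promoter summits with scores of 15.4 at Aimp1, 14.0 at Aimp2 and 9.57 at Eef1e1.

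The promoter summits lay close to the TSS. The median distance was 79 bp and the largest 397 bp, at Vars, and 20 of 35 (57.1%) lay within 100 bp. The median over all autosomal genes with a promoter summit was 143 bp, and 38.1% of these lay within 100 bp. The distance was at most 100 bp in 12 of 18 cytosolic and 8 of 17 mitochondrial genes, and the median was 66 bp in the first class and 105 bp in the second. Summits were on both sides of the start, 18 upstream (51.4%) and 17 downstream, beside 57.4% upstream over all autosomal genes with a promoter summit. By the curated RefSeq mRNAs of the same gene, 14 were in an exon, 3 in an intron (Cars, Vars and Wars2) and 18 outside these mRNAs. These places were not counted over all autosomal genes, so they only describe the members. By class the summit lay upstream in 11 of 18 cytosolic genes (61.1%) and 7 of 17 mitochondrial genes (41.2%), and the difference was not tested.

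Beyond the promoter there was little. Within 10 kb of a TSS all 35 genes held a summit, beside 55.8% of all autosomal genes, and for 27 of the 35 (77.1%) the promoter summit was the only one there. The share with no other summit within 10 kb was 49.3% among all autosomal genes with a promoter summit. It was 14 of 18 in the cytosolic and 13 of 17 in the mitochondrial class. The other 8 genes held 14 further summits, and 9 of these were within 1 kb of a TSS of another gene. The 2 with the highest scores, 57.6 and 45.4, were 7454 and 5208 bp upstream of Cars2 and lay 185 and 84 bp from a TSS of Ing1. The one 8830 bp downstream of the Qars TSS (score 22.4) lay 252 bp from a TSS of Qrich1, and the one 6216 bp upstream of Vars2 (19.8) lay 65 bp from a TSS of Gtf2h4. The 5 that were not near another gene's TSS had scores from 2.15 to 5.07. They were in Vars (2281 and 9701 bp downstream of its TSS), in Iars2 (9740 bp downstream), and upstream of Qars (6564 bp) and Vars2 (2352 bp).

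**Figure D4:**
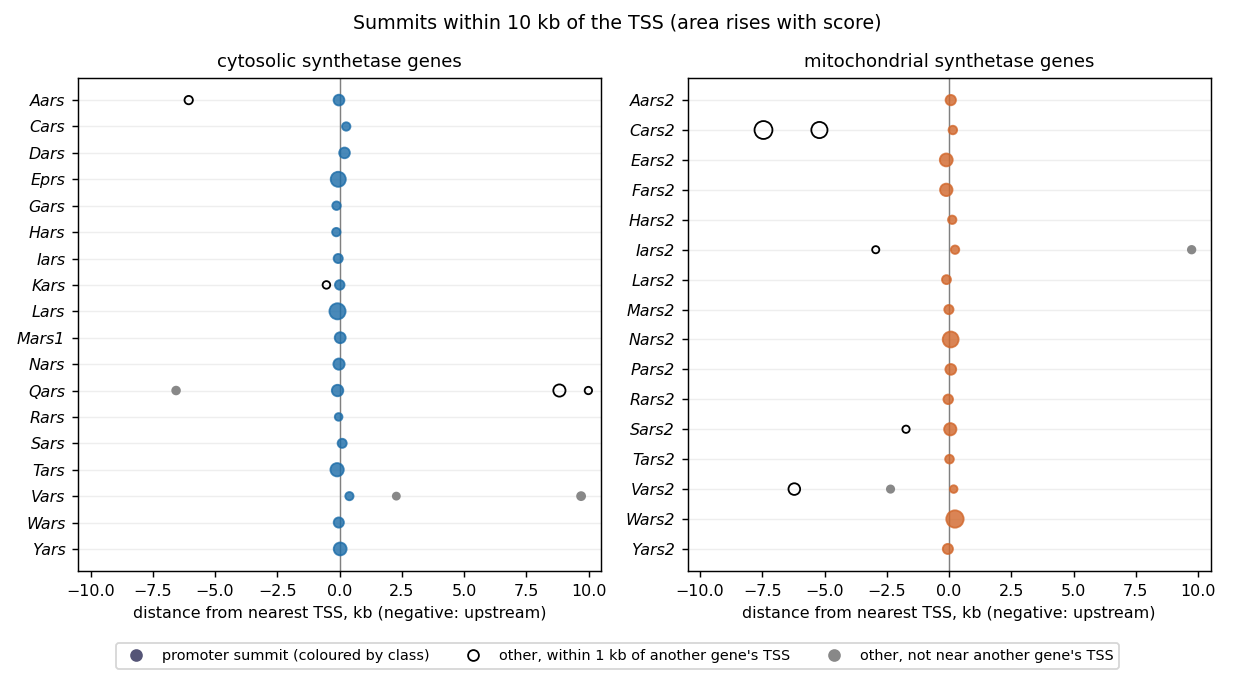
The map of summits gives the distance in kb of each summit from the nearest TSS of the gene, negative values being upstream, for 18 cytosolic genes on the left and 16 of 17 mitochondrial genes on the right. Filled coloured points are promoter summits, open circles are other summits within 1 kb of another gene's TSS, grey points are the rest, and the area rises with the score. Every row has a promoter point, and 26 of the 34 rows hold no other point.

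Several members start back to back with another gene. A TSS of another gene on the opposite strand lay within 1 kb upstream for 11 of the 35 genes (31.4%), 5 of 18 cytosolic and 6 of 17 mitochondrial. Among all autosomal genes the share was 9.00%, and 90.9% of such genes had a promoter summit. Every member had a promoter summit, and of the 9371 autosomal genes with one, 1637 had such a divergent TSS. The promoter summit also lay within 1 kb of a TSS of another gene in 31.4% of members, beside 19.3% of autosomal genes with a promoter summit. At the divergent promoters of members 1 summit counts for both genes, and which of them it belongs to cannot be told apart. The closest starts were those of Hars and Hars2, the cytosolic and mitochondrial histidine enzymes, which lie 4 bp apart on chromosome 18 and share the summit at 36783334 (score 6.58). It was 129 bp upstream of Hars and 125 bp downstream of the Hars2 TSS, in an exon of Hars2.

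Other divergent partners differed in function. Kars starts 5 bp from Terf2ip, which encodes a telomere protein, with a summit at 112011346 on chromosome 8, 8 bp downstream of the Kars TSS (score 10.9). It was the one member with a second summit within 1 kb, 527 bp upstream with a score of 3.83. Rars2 starts 15 bp from Orc3, a gene for a subunit of the origin recognition complex, with a summit at 34614922 on chromosome 4, 35 bp upstream (10.9). Sars2 starts 147 bp from Mrps12, which encodes a protein of the mitochondrial ribosome, with a summit at 28742015 on chromosome 7, 47 bp downstream (23.1). Fars2 starts 286 bp from Lyrm4, a gene of iron-sulfur cluster assembly in mitochondria.

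Ears2 and Ubfd1 start 112 bp apart. Wars and Wdr25 start 98 bp apart, with a summit at 108894203 on chromosome 12, 29 bp upstream of Wars (13.4). Yars and S100pbp start 324 bp apart. Vars and D17H6S56E-5 start 161 bp apart, with a summit at 35001304 on chromosome 17 in an intron of Vars, 397 bp downstream of its TSS (6.02). When each summit counted only for the gene of its nearest TSS, 31 of the 35 genes had one within 1 kb, beside 43.0% of all autosomal genes. Hars, Ears2 and Rars2 were among the 4 that lost theirs to the partner.

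Other genes of tRNA charging and its regulation were taken from a list of 32 genes, of which 25 had a promoter summit, beside 46.8% of all autosomal genes. Among synthetases that the symbol rule does not reach, Farsb (11.3) and Tarsl2 (7.38) had one. Farsa, the other subunit of the cytosolic phenylalanine enzyme, had none, and its nearest summit was 10017 bp from a TSS. The 3 genes of the mitochondrial amidotransferase, which makes glutaminyl-tRNA in place of a glutamine synthetase there, had scores of 17.7 at Gatb, 8.65 at Gatc and 6.02 at Qrsl1. Mtfmt, which formylates the mitochondrial initiator tRNA, had 4.16. Of the editing genes Prorsd1 had a promoter summit (5.55), while Aarsd1 and Dtd1 did not.

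The list also held genes of translation elongation and its partners. Eef1a1 encodes the factor that carries charged tRNA to the ribosome, Eef1b2, Eef1d and Eef1g encode subunits of its nucleotide exchange complex, and Eef2 encodes the translocase. These 5 cytosolic genes all had promoter summits, with scores from 17.4 at Eef2 to 47.3 at Eef1a1. Of 4 mitochondrial genes, Tufm, which carries charged tRNA (16.6), Tsfm, its exchange factor (6.02), and Gfm2, a ribosome recycling factor (3.58), had one. The mitochondrial translocase gene Gfm1 did not. In the amino acid response, 7 of 10 genes had a promoter summit. The highest were Atf4, the transcription factor of the response, with 54.7, and Eif2ak4, the kinase that senses uncharged tRNA, with 30.6. Sesn2 had 19.4, and Trib3 (8.65), Psat1 (7.58), Asns (6.02) and Chac1 (5.87) were lower. Ddit3, Phgdh and Shmt2 had none. The CARE letters were in the promoters of Asns, Chac1 and Trib3, 3 of 10 genes of this list, and in none of the 19 other listed genes with a promoter sequence, beside 3.32% of all promoters. These 10 genes were picked as members of the response that the element is named for. Their count is therefore no test of the CARE matches in the synthetase genes.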

How the data were processed

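ATAC-seq libraries from BAT of 2 WT and 2 Dot1L-BKO mice were the source of the deposited list. Per the labels and the methods, the authors aligned paired-end reads to mm10 with BWA and called peaks with MACS2 2.1.1 in ATAC mode, with cutoffs on the q-value and on fold enrichment. Values in the deposited list are the summit position and the −log10 of the q-value (lowest 1.31). Read shifting and duplicate handling are not given in the sources used here and could move summits and scores.

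Summits were compared with TSSs of curated mRNAs in RefSeq for GRCm38.p6, within 1 kb and 10 kb. The highest-scored summit within 1 kb stood for a gene. Shares have 95% Wilson intervals, and differences between classes have Newcombe intervals. No p-value is given, because genes are not replicates. Promoter sequences matched for 25 of 35 members by symbol and coordinates.

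Named in full were the 4 highest-scored genes of each class, genes without a promoter summit (none) and genes sharing one with another gene. The counts include 1 mitochondrial member that is not reported here by name. The members and lists were chosen with earlier results of these data known. The alternatives changed the score minimum, window, transcripts, assignment of summits, treatment of genes with shared summits and motif window. The window assignment was checked on positions placed at known distances. Computations used pandas 2.3.3 and pyfaidx 0.9.0.4 in Python 3.11.15, with scipy 1.17.1 and numpy 2.4.6, and plots used matplotlib 3.10.9.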

Additional observations from a re-analysis of the deposited data

How the results depend on the processing

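All 35 genes had a promoter summit with windows of 500 bp and 5 kb, with the most upstream TSS alone and with predicted mRNAs. A score of at least 5 left 33 genes (37.5% of all autosomal genes), the window from 1 kb upstream to 100 bp downstream left 26 (36.4% of all), and the nearest TSS alone left 31 (43.0% of all). A score of at least 10 left 21 genes (11 cytosolic and 10 mitochondrial) within 1 kb and 23 within 10 kb, by construction, since it removes summits. The same minimum within 1 kb left 4904 of the 9371 autosomal genes. Within 10 kb, 25 of the 35 genes kept a summit when summits within 1 kb of another gene's TSS were left out. With the nearest TSS alone, 31 kept one within 10 kb. Shares over all autosomal genes were not counted for these 10 kb settings. Without genes whose summit lay near another gene's TSS, median scores were 16.0 (cytosolic) and 9.55 (mitochondrial) in place of 14.5 and 13.3, from fewer genes. Leaving out Gars and Kars could only give a difference of 0 between class shares, since every member had a promoter summit, and says nothing about stability. The wider motif window left each motif count within 1.5 times of its value.

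No paired analysis was possible because scores were not split by mouse. For the same reason leaving out each replicate was not run. Depth is unknown, so a gene without a summit was not shown to be closed.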
